A study of Mus musculus with 10 samples.

Results

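The glycolysis and hypoxia genes are 36 genes named for glucose uptake, the steps of glycolysis, lactate and pyruvate handling, oxygen sensing and the response to low oxygen. They were selected by name, and no measured value entered the rule. Each gene was represented by a probe set whose annotation gives its symbol alone, and by the brightest of these where there were several. This found 33 of the 36 genes among 19938 genes with such a probe set. The level filter was a mean log2 signal of 6.23 over the 10 arrays, which is the 25th percentile over every probe set. All 33 genes passed it and were tested among 15662 genes. Gpi1 and Eno1 are not listed in the annotation used and were not analysed here. Gapdh was on 25 probe sets that also carry other symbols, with mean log2 signals of 14.16 to 14.54 and log2 differences (4-OHT minus vehicle) in single lines of -0.02 to 0.11.

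The study asked how loss of Zfx, which encodes a zinc finger transcription factor, alters expression in mouse acute myeloid leukaemia cells driven by the MLL-AF9 fusion gene. RNA of sorted c-Kit-positive cells from 5 leukaemia lines, each an independent primary leukaemia, was hybridised to 10 single-colour arrays. All lines carry MLL-AF9 and Cre-ER, a recombinase that 4-hydroxytamoxifen (4-OHT) switches on. Each line was cultured for 72 h with 10 nM 4-OHT and, separately, with ethanol vehicle. The fl 4-OHT and fl vehicle groups have 3 arrays each, from lines 10949, 10950 and 10986, whose genotype is Zfx fl/y, a conditional allele. The wt 4-OHT and wt vehicle groups have 2 arrays each, from lines 10977 and 10980, whose genotype is Zfx wt/y. The wt lines therefore received the drug and hold the recombinase too. The sources used here name neither the promoter that drives Cre-ER nor the age of the animals.

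Glycolysis turns glucose into pyruvate, which is either oxidised in mitochondria or reduced to lactate and exported. When oxygen is low, prolyl hydroxylases of the Egln family no longer mark hypoxia-inducible factor (HIF) for destruction, and HIF raises the transcription of glucose carriers, glycolytic enzymes, Pdk1, Bnip3 and Vegfa. Leukaemic progenitors grow in the poorly oxygenated bone marrow and are known for high glucose use.

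Median signals were 144.7 to 158.2 on the 10 arrays. The vehicle array of fl line 10986 stood apart, with a mean correlation across genes of 0.961 with the other arrays, against 0.979 to 0.985 for the other 9. It held the highest or the lowest value of the 10 arrays for 12 of the 33 members (36.4%), against 53.1% of all genes tested. All 12 myeloid progenitor markers, Kit among them, were above the level filter. The Zfx probe set read (in log2 signal, as in all readings below) 10.07, 9.98 and 10.02 on the fl 4-OHT arrays of lines 10949, 10950 and 10986, against 10.09, 9.63 and 9.24 on their vehicle arrays. In lines 10977 and 10980 it read 9.90 and 10.04 on the wt 4-OHT arrays, against 10.12 and 10.07 on the wt vehicle arrays. Its log2 difference in the fl lines was 0.37 (SE 0.16, n = 3 line pairs, limma adjusted p = 0.407), so its mean signal was not lower on the arrays labelled 4-OHT. The sources used here do not say whether its probes lie in the deleted exons, and the 4-OHT arrays below are described by their labels.

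The windows below show what the start regions of members hold, for the members that had an unadjusted p under 0.05 in the fl comparison of 4-OHT with vehicle and are in the table of windows (Vegfa, Egln3, Hif1a, Egln1, Pdk1), and for a pair of classical HIF targets that did not (Ldha, Pgk1). The members without a window are Slc2a3 and Bnip3l. Each runs from 250 bases before to 50 bases after an annotated start, read 5′ to 3′ on the strand of the gene, from RefSeq on GRCm38.p6. Capitals mark the HIF core ACGTG or GCGTG on either strand, so that CACGT and CACGC are the same cores read on the opposite strand, and CACGTG holds a core on both strands.
Vegfa, chr17:46032328-46032627, minus strand: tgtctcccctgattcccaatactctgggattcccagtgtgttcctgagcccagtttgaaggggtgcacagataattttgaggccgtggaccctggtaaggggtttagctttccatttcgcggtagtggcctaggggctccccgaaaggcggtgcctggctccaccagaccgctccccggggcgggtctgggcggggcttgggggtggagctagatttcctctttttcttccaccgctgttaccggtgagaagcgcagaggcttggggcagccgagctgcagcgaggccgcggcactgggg
Vegfa, chr17:46025114-46025413, minus strand: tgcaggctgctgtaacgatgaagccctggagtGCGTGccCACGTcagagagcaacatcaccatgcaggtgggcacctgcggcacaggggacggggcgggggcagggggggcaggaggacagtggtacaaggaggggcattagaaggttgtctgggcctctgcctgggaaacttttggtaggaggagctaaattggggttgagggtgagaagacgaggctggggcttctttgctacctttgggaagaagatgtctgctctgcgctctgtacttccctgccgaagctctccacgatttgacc
Egln3, chr12:54203825-54204124, minus strand: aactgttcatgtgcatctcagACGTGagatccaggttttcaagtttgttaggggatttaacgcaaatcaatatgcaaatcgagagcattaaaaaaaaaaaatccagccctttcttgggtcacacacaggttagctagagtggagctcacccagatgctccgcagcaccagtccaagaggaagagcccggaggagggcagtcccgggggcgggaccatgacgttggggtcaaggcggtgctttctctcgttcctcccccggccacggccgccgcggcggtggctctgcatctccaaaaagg
Hif1a, chr12:73907617-73907916, plus strand: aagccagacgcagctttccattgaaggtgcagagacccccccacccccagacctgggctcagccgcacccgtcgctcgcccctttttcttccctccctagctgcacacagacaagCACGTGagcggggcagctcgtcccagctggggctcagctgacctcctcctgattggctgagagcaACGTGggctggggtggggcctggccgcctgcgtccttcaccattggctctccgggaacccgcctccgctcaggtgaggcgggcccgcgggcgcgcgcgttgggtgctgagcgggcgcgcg
Egln1, chr8:124949205-124949504, minus strand: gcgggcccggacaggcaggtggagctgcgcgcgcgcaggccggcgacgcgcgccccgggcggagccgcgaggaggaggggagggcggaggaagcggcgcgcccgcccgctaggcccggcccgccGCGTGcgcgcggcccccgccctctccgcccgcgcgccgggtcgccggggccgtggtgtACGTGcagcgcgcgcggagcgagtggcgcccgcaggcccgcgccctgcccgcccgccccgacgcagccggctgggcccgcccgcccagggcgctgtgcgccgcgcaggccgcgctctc
Pdk1, chr2:71872974-71873273, plus strand: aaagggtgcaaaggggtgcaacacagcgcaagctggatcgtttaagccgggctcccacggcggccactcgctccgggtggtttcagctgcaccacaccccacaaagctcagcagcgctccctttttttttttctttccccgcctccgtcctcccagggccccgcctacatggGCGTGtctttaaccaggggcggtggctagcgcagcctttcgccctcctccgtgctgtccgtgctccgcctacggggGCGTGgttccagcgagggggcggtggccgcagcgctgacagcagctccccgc
Ldha, chr7:46845554-46845853, plus strand: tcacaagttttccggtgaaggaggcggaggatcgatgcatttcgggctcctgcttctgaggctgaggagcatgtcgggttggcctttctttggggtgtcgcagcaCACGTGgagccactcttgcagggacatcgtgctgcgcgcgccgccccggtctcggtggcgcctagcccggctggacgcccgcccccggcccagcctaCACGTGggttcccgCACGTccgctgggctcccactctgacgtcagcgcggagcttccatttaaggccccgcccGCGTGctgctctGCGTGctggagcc
Pgk1, chrX:106186850-106187149, plus strand: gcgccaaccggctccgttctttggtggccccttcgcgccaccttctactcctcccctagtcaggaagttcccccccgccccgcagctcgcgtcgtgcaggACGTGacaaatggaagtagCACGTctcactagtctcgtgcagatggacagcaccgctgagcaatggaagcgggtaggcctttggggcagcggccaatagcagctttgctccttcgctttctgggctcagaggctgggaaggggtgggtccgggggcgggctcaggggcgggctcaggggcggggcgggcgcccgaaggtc
Windows were found for 31 of the 33 measured members, 47 windows in all. A core stood in a window of 29 of these 31 members (93.5%), against 46.7% of all genes in the table. Counted by window, the shares were 76.6% of the members' windows and 43.8% of all windows. ACGTG, with or without GCGTG, was in 57.4% of the members' windows, against 19.6% of all windows. GCGTG, with or without ACGTG, was in 48.9% of the members' windows, against 32.4% of all windows. Many members are known as HIF targets, so that share describes the list and is not independent of how it was made. Eno2 and Tpi1 were the members with no core in a window. Of the 2 windows of Vegfa, the one at chr17:46032328-46032627 holds no core and the other holds 2. Vegfa is on the minus strand, so the window with 2 cores lies downstream of the window with none. Vegfa counts among the 29 members only through that downstream window. The Ldha window printed above holds 7 and the Hif1a window 3. Pdk1 and Ldha each have another window, not printed: the one of Pdk1 at chr2:71874654-71874953 holds 0 cores and the one of Ldha at chr7:46846832-46847131 holds 2. A match is a run of letters in the window and was not tested for binding. AGGCCT, the centre of the known Zfx motif and the same on both strands, was in 4.26% of the members' windows, against 10.3% of all windows.

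With 4-OHT in the fl lines, Vegfa, the growth factor that drives blood vessel growth, was the member with the largest difference, at 44.2% of its vehicle signal, and it was lower in 3 of 3 lines. Slc2a3, a high-affinity glucose carrier, was higher in 3 of 3 lines, at 151% of vehicle. Hif1a and Egln3 were higher and Egln1 and Pdk1 lower in 3 of 3 lines. The 15 enzymes of glycolysis and its control had mean log2 differences between -0.26 (Pfkl) and 0.23 (Aldoc). No member passed an adjusted p of 0.05 in limma's test over all genes (0 of 33), against 24 of 15662 genes (0.153%). At an unadjusted p under 0.05 stood 6 members (18.2%), against 12.3% of all genes: Slc2a3, Hif1a and Egln3 higher, and Vegfa, Egln1 and Pdk1 lower. The median log2 difference of the members was 0.02, with 18 above 0 and 15 below, against a median of -4.03e-05 over all genes. The SD over the members was 0.31, against 0.24 over all genes.

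The same direction in all 3 fl lines was seen for 9 of 33 members (27.3%), against 29.1% of all genes. These were Slc2a3, Hif1a, Egln3, Aldoc and Hk2 on the higher side and Vegfa, Egln1, Pdk1 and Pfkl on the lower. The 3 fl 4-OHT and 3 fl vehicle arrays did not overlap for 4 members (12.1%), against 11.8% of all genes, and these were Vegfa, Slc2a3, Pdk1 and Egln1. Both shares were near those of all genes.

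In the wt lines no member and no gene passed the adjusted threshold (0 of 33, against 0% of all genes), and no member had an unadjusted p under 0.05, against 0.147% of all genes. The differences of the 2 wt lines had opposite signs for 25 of 33 members (75.8%), against 51.2% of all genes. In line 10977, 24 members were lower with 4-OHT and 9 higher, while 50.8% of all genes were higher (median -0.11 over the members, 0.00318 over all genes). In line 10980, 7 were lower and 26 higher, while 49.1% of all genes were higher (median 0.15 over the members, -0.00287 over all genes). Across the 33 members the differences of the wt lines correlated at r = -0.48 (rho = -0.50), against r = -0.22 over all genes. A wt mean near 0 therefore often stands for a pair of unlike values, and both are given below for the members described in full. Between pairs of fl lines, r over the members was 0.66 for 10949 and 10950, 0.53 for 10949 and 10986, and 0.44 for 10950 and 10986, against 0.55, 0.24 and 0.07 over all genes. These correlations describe 33 points that share the same arrays, and the members' rho was lower, at 0.25, 0.45 and 0.22 for the same pairs.

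**Figure D1:**
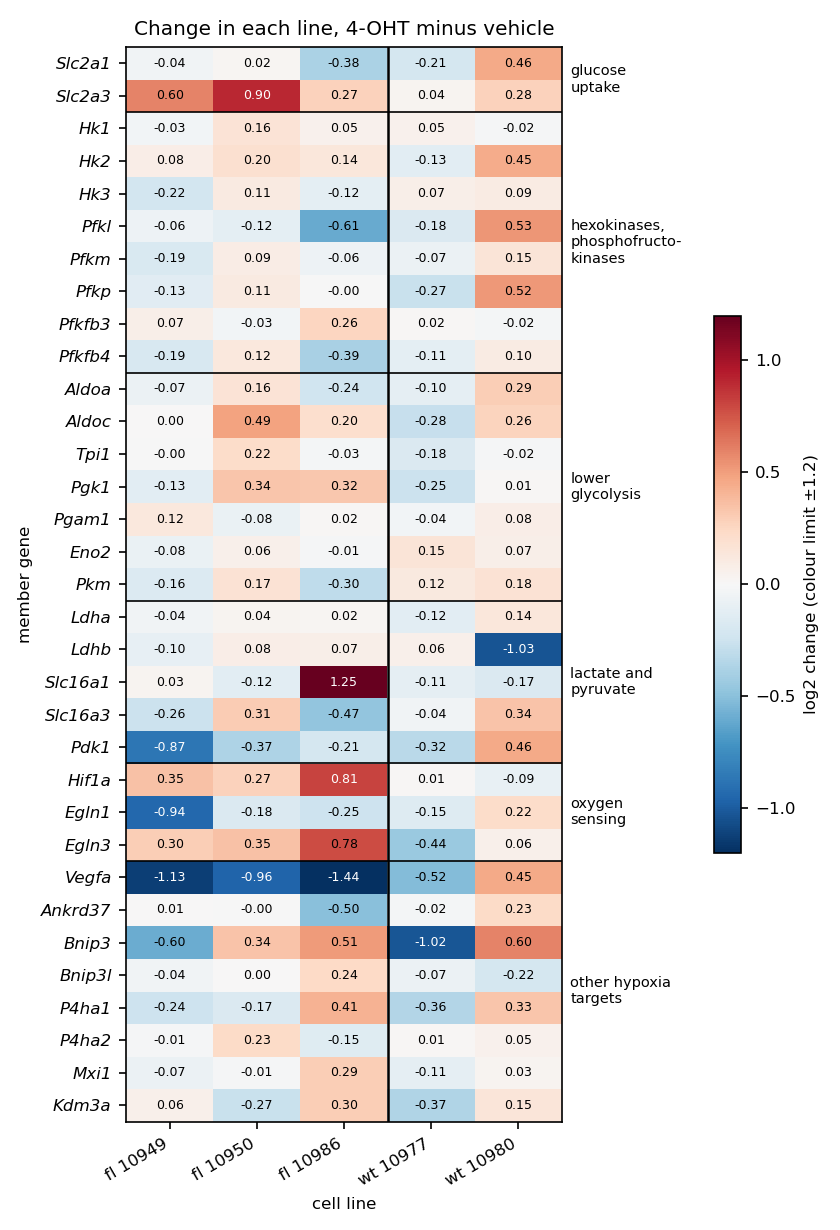
Log2 difference, 4-OHT minus vehicle (colour, limited at 1.2 either way, and printed value) for each of the 33 measured members (rows, grouped by role) in each line (columns, fl lines left of wt lines). Vegfa is negative in all 3 fl lines, from -0.96 to -1.44, and Slc2a3 positive in all 3, while the wt lines 10977 and 10980 often have opposite signs.

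Glucose enters these cells through carriers of the Slc2a family. Slc2a3 read 7.90, 8.54 and 7.71 on the fl 4-OHT arrays of lines 10949, 10950 and 10986, against 7.30, 7.64 and 7.43 on their fl vehicle arrays. The highest fl vehicle array lay below the lowest fl 4-OHT array. The log2 difference was 0.59 (SE 0.14, n = 3 line pairs, limma adjusted p = 0.156), and it passed only when line 10986 was left out (0.75, adjusted p = 0.0195) or with array weights, whose estimation did not converge (adjusted p = 0.000571), in a range of 0.000571 to 0.472 over all alternatives. The wt 4-OHT arrays of lines 10977 and 10980 read 7.54 and 7.75, against 7.50 and 7.47 with vehicle, a log2 difference of 0.16 (SE 0.17, n = 2 line pairs, adjusted p = 1). Slc2a1, the carrier for basal glucose uptake, read 10.66, 10.65 and 11.09 on the fl 4-OHT arrays, against 10.70, 10.63 and 11.47 on the fl vehicle arrays. The groups overlapped, and the highest of all 10 arrays was the vehicle array of line 10986. Its log2 difference was -0.13 (SE 0.15, adjusted p = 0.882) in the fl lines, with -0.04, 0.02 and -0.38 in lines 10949, 10950 and 10986. Slc2a1 read 10.50 and 10.77 on the wt 4-OHT arrays of lines 10977 and 10980, against 10.71 and 10.32 on the wt vehicle arrays.

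Hexokinases trap glucose in the cell, and phosphofructokinase commits it to glycolysis. None of the 8 members of this group passed, 3 were higher and 5 lower in the fl lines, and the median log2 difference was -0.03, against -4.03e-05 over all genes. Hk2, the hexokinase most often tied to tumour glycolysis, read 9.21, 9.49 and 9.47 on the fl 4-OHT arrays, against 9.12, 9.29 and 9.34 on the fl vehicle arrays. It was higher in each line by little, and the groups overlapped (0.14, SE 0.13, adjusted p = 0.798). Hk2 read 9.17 and 9.73 on the wt 4-OHT arrays of lines 10977 and 10980, against 9.29 and 9.28 on the wt vehicle arrays. Pfkl, the liver-type subunit of phosphofructokinase, read 9.29, 9.64 and 9.70 on the fl 4-OHT arrays, against 9.34, 9.76 and 10.31 on the fl vehicle arrays. The vehicle array of line 10986 stood above all others, and the log2 differences in lines 10949, 10950 and 10986 were -0.06, -0.12 and -0.61. The mean was -0.26 (SE 0.17, adjusted p = 0.636), and it lay between -0.36 and -0.01 over the alternatives. In the wt lines Pfkl read 8.97 and 9.39 with 4-OHT, against 9.14 and 8.86 with vehicle.

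The other members of this group gave means between -0.15 and 0.10 in the fl lines. Those were 0.06 for Hk1, -0.08 for Hk3, -0.06 for Pfkm, -0.01 for Pfkp, 0.10 for Pfkfb3 and -0.15 for Pfkfb4. Pfkfb3 and Pfkfb4 set the level of a sugar phosphate that activates phosphofructokinase. The Hk1 values need care, because its brightest probe set lists a single accession and no RefSeq transcript, and 16 further probe sets carry Hk1 together with other symbols. The Hk1 probe set that lists RefSeq transcripts gave an fl difference of -0.03 (SE 0.14, adjusted p = 0.994) and a wt difference of 0.10 (SE 0.17, adjusted p = 1).

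The lower steps of glycolysis split the sugar and yield ATP and pyruvate. None of the 7 measured enzymes passed, 4 were higher and 3 lower in the fl lines, with a median of 0.02 and a range from -0.10 for Pkm to 0.23 for Aldoc. Pgk1, the kinase that makes ATP from bisphosphoglycerate, read 12.40, 12.37 and 12.70 on the fl 4-OHT arrays, against 12.53, 12.04 and 12.38 on the fl vehicle arrays. It was lower in line 10949 and higher in lines 10950 and 10986 (mean 0.18, SE 0.13, adjusted p = 0.686). Pgk1 read 12.04 and 12.24 on the wt 4-OHT arrays of lines 10977 and 10980, against 12.30 and 12.23 on the wt vehicle arrays. Aldoc, an aldolase best known from brain, read 9.09, 9.26 and 9.95 on the fl 4-OHT arrays, against 9.08, 8.77 and 9.75 on the fl vehicle arrays. Line 10950 held most of its difference, at 0.49, and the groups overlapped (mean 0.23, SE 0.14, adjusted p = 0.612). Aldoc read 8.74 and 8.11 on the wt 4-OHT arrays of lines 10977 and 10980, against 9.02 and 7.85 on the wt vehicle arrays, so the lines lay further apart than the treatments. Aldoa, Tpi1, Pgam1, Eno2 and Pkm had mean log2 differences of -0.05, 0.07, 0.02, -0.01 and -0.10 in the fl lines. Pkm, the pyruvate kinase of most dividing cells, was lower in lines 10949 and 10986 and higher in line 10950. A second probe set of Pkm, which lists no RefSeq transcript, gave 0.17, 0.32 and -0.20 in lines 10949, 10950 and 10986. Its mean of 0.10 has the opposite sign, as has its value in line 10949.

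Pyruvate is reduced by lactate dehydrogenase, exported as lactate through Slc16a carriers, or kept from mitochondrial oxidation by Pdk1. Ldha, the main lactate-forming subunit, read 13.49, 13.42 and 13.54 on the fl 4-OHT arrays, against 13.54, 13.38 and 13.51 on the fl vehicle arrays. The groups overlapped almost fully, with a log2 difference of 0.00496 (SE 0.10, adjusted p = 1). In the wt lines Ldha read 13.30 and 13.42 with 4-OHT, against 13.42 and 13.28 with vehicle. Pdk1, the kinase that inhibits pyruvate dehydrogenase, read 8.44, 8.33 and 8.56 on the fl 4-OHT arrays, against 9.30, 8.71 and 8.77 on the fl vehicle arrays. All 3 vehicle arrays lay above all 3 4-OHT arrays, and the difference was largest in line 10949, at -0.87. The mean was -0.48, or 71.5% of vehicle (SE 0.19, adjusted p = 0.357). Pdk1 read 8.45 and 8.56 on the wt 4-OHT arrays of lines 10977 and 10980, against 8.77 and 8.10 on the wt vehicle arrays, so it was lower in line 10977 (-0.32) and higher in line 10980 (0.46).

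Slc16a1, a carrier of lactate and pyruvate in both directions, read 11.27, 10.65 and 11.12 on the fl 4-OHT arrays, against 11.24, 10.77 and 9.88 on the fl vehicle arrays. The mean log2 difference of 0.39 (SE 0.25, adjusted p = 0.637) rested on the vehicle array of line 10986, the lowest of all 10. Without that line it was -0.04. The wt arrays of Slc16a1 read 10.96 and 10.98 with 4-OHT, against 11.07 and 11.15 with vehicle. Slc16a3, a lactate exporter of glycolytic cells, had a mean of -0.14 (SE 0.17, adjusted p = 0.887), with -0.26, 0.31 and -0.47 in lines 10949, 10950 and 10986. Ldhb, the subunit that favours lactate use, read 6.45, 6.72 and 6.70 on the fl 4-OHT arrays, against 6.55, 6.64 and 6.63 on the fl vehicle arrays. Those values lie near the level filter, where signals have little precision, and the groups overlapped (0.02, SE 0.20, adjusted p = 1). Ldhb read 6.75 and 7.25 on the wt 4-OHT arrays of lines 10977 and 10980, against 6.68 and 8.28 on the wt vehicle arrays, and the array at 8.28, of line 10980, stood above the other 9.

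Oxygen sensing rests on Hif1a, the oxygen-labile subunit of HIF, and on the prolyl hydroxylases that mark it. Hif1a read 11.64, 11.13 and 11.84 on the fl 4-OHT arrays, against 11.29, 10.86 and 11.03 on the fl vehicle arrays. It was higher in each line, by 0.35, 0.27 and 0.81 in 10949, 10950 and 10986, and the groups overlapped because line 10950 is low in both (mean 0.48, SE 0.13, adjusted p = 0.197). In the wt lines Hif1a read 11.30 and 10.96 with 4-OHT, against 11.29 and 11.05 with vehicle, a difference of -0.04 (SE 0.16, adjusted p = 1). The RNA level of Hif1a need not follow that of its protein, which oxygen also controls and which was not measured here.

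Egln3, a prolyl hydroxylase that is itself a known HIF target, read 11.04, 10.87 and 10.45 on the fl 4-OHT arrays, against 10.75, 10.52 and 9.67 on the fl vehicle arrays. The groups overlapped, the order of the lines was the same under both treatments, and each line was higher with 4-OHT, by 0.30, 0.35 and 0.78 (mean 0.48, SE 0.14, adjusted p = 0.247). Egln3 read 10.16 and 11.31 on the wt 4-OHT arrays of lines 10977 and 10980, against 10.61 and 11.25 on the wt vehicle arrays. Egln1, the hydroxylase that acts on HIF in most cells, read 7.52, 7.96 and 8.02 on the fl 4-OHT arrays, against 8.46, 8.13 and 8.27 on the fl vehicle arrays. The groups did not overlap, and line 10949 gave the largest difference, -0.94, against -0.18 in line 10950 and -0.25 in line 10986 (mean -0.46, SE 0.17, adjusted p = 0.344). Egln1 read 8.22 and 8.34 on the wt 4-OHT arrays of lines 10977 and 10980, against 8.37 and 8.12 on the wt vehicle arrays, and its log2 differences were -0.15 and 0.22.

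The remaining members are targets of the hypoxia response outside glycolysis. Vegfa read 9.40, 9.23 and 8.85 on the fl 4-OHT arrays of lines 10949, 10950 and 10986, against 10.53, 10.19 and 10.29 on the fl vehicle arrays. Every fl 4-OHT array lay below each of the other 7 arrays, and the fl groups did not overlap. The means were 9.16 ± 0.28 on fl 4-OHT arrays and 10.34 ± 0.17 on fl vehicle arrays (SD, n = 3 each). The log2 difference was -1.18 (SE 0.19, n = 3 line pairs, adjusted p = 0.0873), which misses the threshold. With the line as a random block it passed (adjusted p = 0.0411), likewise without line 10986 (-1.05, adjusted p = 0.0371) and with array weights (adjusted p = 0.00046), in a range of 0.00046 to 0.349 over the alternatives. In the wt lines Vegfa read 10.34 and 10.92 with 4-OHT, against 10.86 and 10.46 with vehicle, with a mean difference of -0.03 (SE 0.24, n = 2 line pairs, adjusted p = 1). Line 10977 was lower with 4-OHT, by 0.52 on the log2 scale, and line 10980 was higher.

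Summed signals of markers of maturing myeloid cells were higher with 4-OHT in 3 of 3 fl lines, for the monocyte and macrophage list and for the late neutrophil list, and in 1 of 2 wt lines for each. Of 12 monocyte and macrophage markers 10 had a probe set and 9 were above the level filter, and the list summed to 17881, 10834 and 17980 on the fl 4-OHT arrays of lines 10949, 10950 and 10986, against 11511, 7426 and 8531 on the fl vehicle arrays. It summed to 15123 and 8525 on the wt 4-OHT arrays of lines 10977 and 10980, against 11406 and 12033 on the wt vehicle arrays. Of 10 late neutrophil markers 9 were above the filter, with sums of 13910, 7552 and 14992 on the fl 4-OHT arrays, against 9506, 5515 and 8252 on the fl vehicle arrays. Their sums were 23840 and 5604 on the wt 4-OHT arrays, against 20121 and 9469 on the wt vehicle arrays. All these sums add linear signals, so bright markers weigh most. Lcn2, the brightest late neutrophil marker on the fl 4-OHT arrays, read 12.66, 11.62 and 13.08 there, against 12.18, 10.78 and 12.45 with vehicle. Some markers above the filter went the other way in the fl lines: Ccr2 was lower in 10949 and 10950, Ngp in 10950 and S100a9 in 10949. In line 10986 Cx3cr1, Mmp9, Camp and Ltf were lower, with Cx3cr1 at 8.13 against 8.62 with vehicle. The mast cell and basophil list was also higher with 4-OHT in 3 of 3 fl lines and in 0 of 2 wt lines. Its markers did not all go the same way. Cpa3 read 8.10, 10.03 and 6.81 on the fl 4-OHT arrays, against 6.71, 9.06 and 6.51 on the fl vehicle arrays. Mcpt8 read 10.86, 9.06 and 9.18, against 10.54, 9.54 and 8.04, so it was lower in line 10950. Ms4a2 and Fcer1a, near the level filter, were lower in each fl line. The sum of the 8 stromal and endothelial markers was higher with 4-OHT in 3 of 3 fl lines and in 1 of 2 wt lines, and Pecam1, which myeloid cells also express, made up 34.3% to 65.6% of it on the fl arrays. Pecam1 read 10.69, 10.59 and 10.55 on the fl 4-OHT arrays, against 10.11, 10.21 and 9.10 on the fl vehicle arrays. Each of the other markers of this list was lower with 4-OHT in line 10986, with Col1a1 at 8.31 against 8.54. Each was higher in line 10950, and in line 10949 Pdgfra and Cdh5 were lower and the others higher. Of the 8 markers 6 were above the level filter. C1qa and Retnlg were below the filter. In RNA of a cell population, fewer cells of a type and less RNA per cell cannot be told apart, and the part of other cell types in the Vegfa difference and in those of the other members was not tested.

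Bnip3, a receptor that marks mitochondria for removal and a classical HIF target, read 11.04, 10.99 and 11.71 on the fl 4-OHT arrays, against 11.64, 10.65 and 11.19 on the fl vehicle arrays. Its lines disagreed in sign, with -0.60, 0.34 and 0.51 in 10949, 10950 and 10986 (mean 0.09, SE 0.33, adjusted p = 0.992). The wt lines disagreed too: Bnip3 read 9.91 and 10.63 with 4-OHT, against 10.93 and 10.04 with vehicle, a log2 difference of -1.02 in line 10977 and 0.60 in line 10980. A second probe set of Bnip3 gave -0.64, 0.28 and 0.35 for the fl lines and -0.65 and 0.61 for the wt pair, the same signs in every line. Of the other members of this group, Bnip3l, its relative, had a mean of 0.07 and Ankrd37, an ankyrin repeat protein, of -0.16. P4ha1 and P4ha2, catalytic subunits of the hydroxylase that matures collagen, had means of -0.000783 and 0.03. Mxi1, an antagonist of MYC, had 0.07, and Kdm3a, a histone demethylase, had 0.03, each within its SE.

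**Figure D2:**
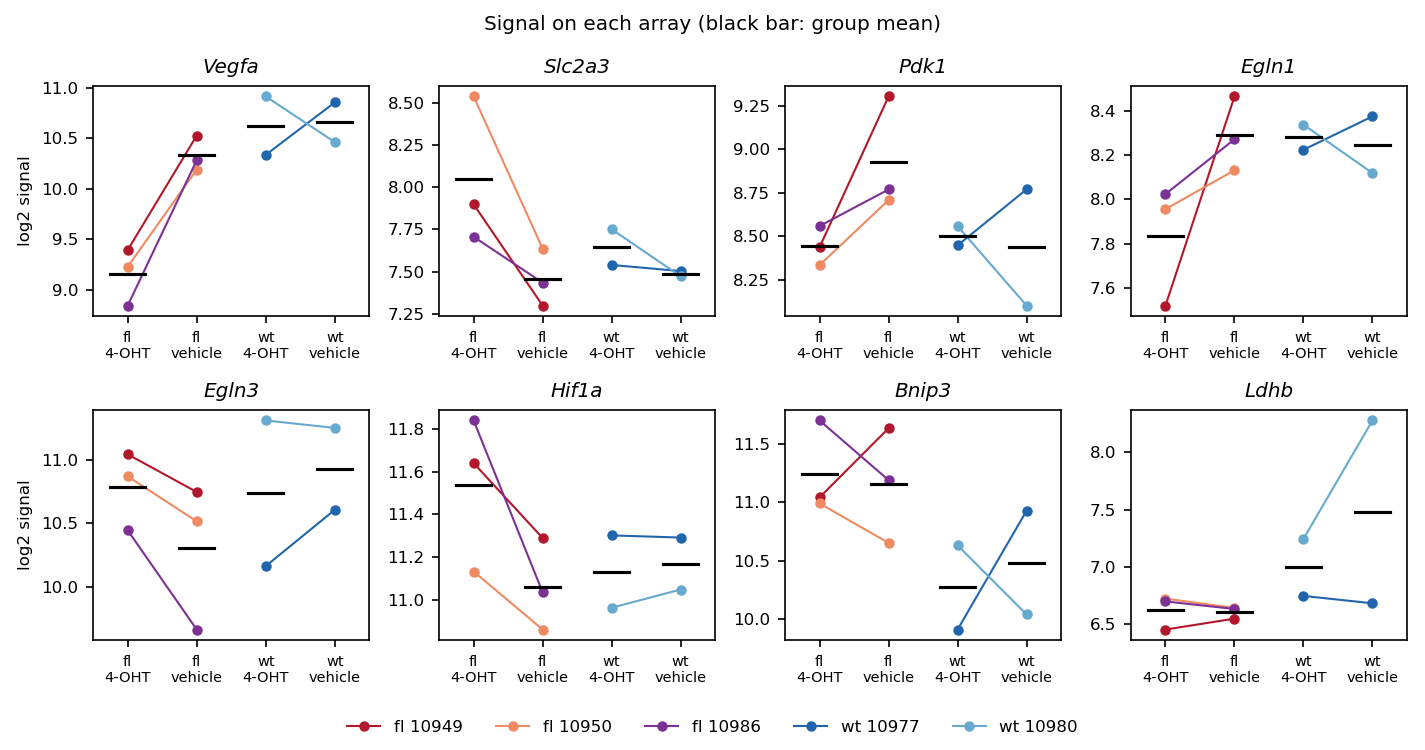
Log2 signal (vertical axis) on each of the 10 arrays for 8 members, with fl 4-OHT, fl vehicle, wt 4-OHT and wt vehicle arrays from left to right, a line joining the arrays of 1 cell line and a black bar at each group mean. Vegfa lies at 8.85 to 9.40 on the fl 4-OHT arrays and at 10.19 or above on all others, while the wt lines cross for Vegfa, Slc2a3, Pdk1, Egln1 and Bnip3.

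The difference between the fl and the wt effect of 4-OHT asks whether the response depends on the conditional allele. No member and no gene passed (0 of 33, against 0% of all genes), and at an unadjusted p under 0.05 stood Vegfa, Egln3 and Hif1a, 3 of 33 (9.09%), against 5.82% of all genes. For Vegfa the difference of the effects was -1.14 (SE 0.30, adjusted p = 0.677), with each fl line more negative than both wt lines. For Egln3 it was 0.67 (SE 0.23, adjusted p = 0.769) and for Hif1a 0.51 (SE 0.20, adjusted p = 0.825). Pdk1 gave -0.55 (SE 0.29, adjusted p = 0.891) and Slc16a1 0.53 (SE 0.40, adjusted p = 0.927). Single lines moved some of these values by more than 1.5 times. The difference of the effects for Vegfa was -0.66 without wt line 10980 and -1.63 without wt line 10977, and for Pdk1 it was -0.16 and -0.94 without the same lines. For Egln3 it was 0.42 without line 10977, and for Slc16a1 0.0954 without fl line 10986. Without line 10949 it was -0.36 for Pdk1. The standard errors of this difference are larger than those within the fl lines, since it also carries the error of the wt effect, which comes from 2 lines. Over the 33 members the median was -0.00376, with 15 above 0 and 18 below, against -0.01 over all genes. No member had all 3 fl lines on the one side of 0 and both wt lines on the other (0 of 33), against 8.07% of all genes.

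**Figure D3:**
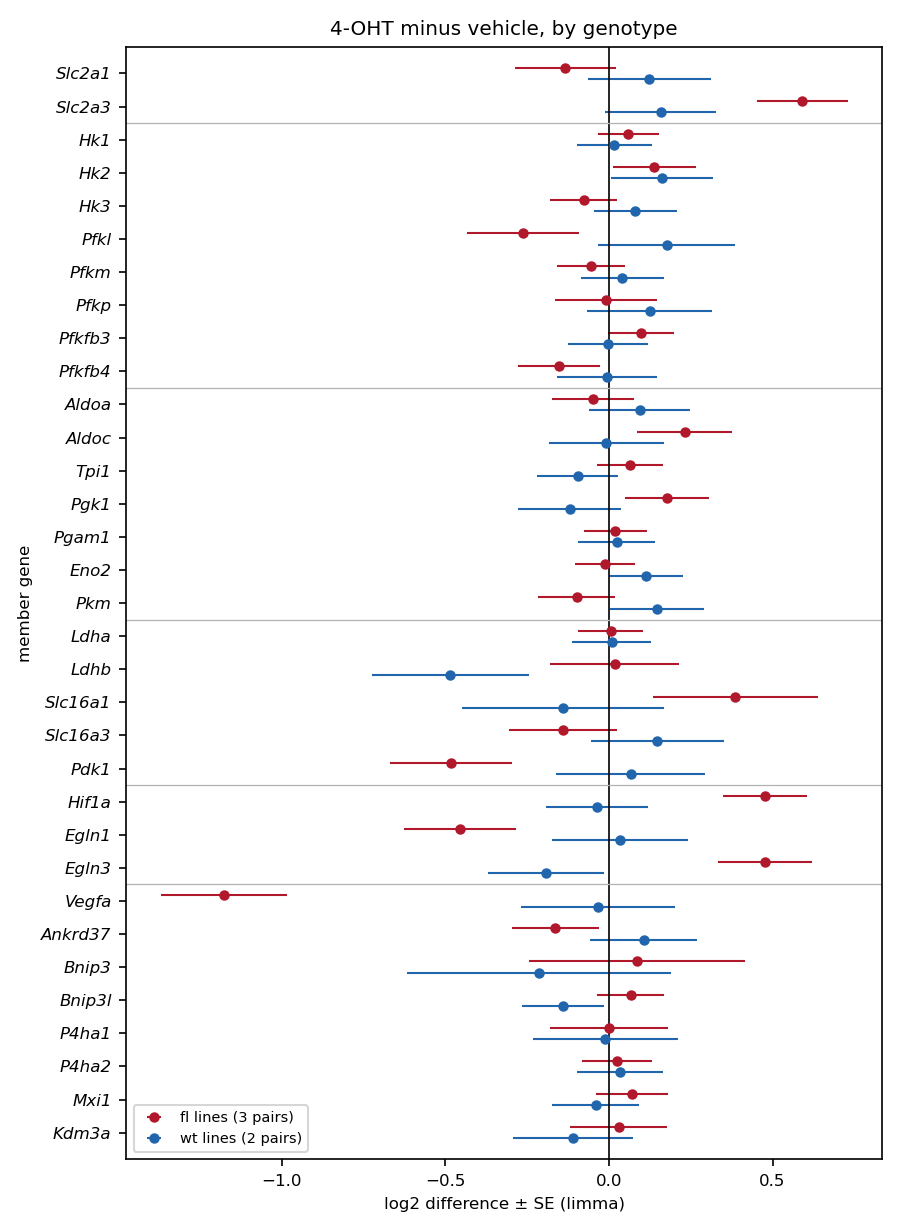
Log2 difference, 4-OHT minus vehicle (horizontal axis, limma mean with its SE as the bar) for each measured member (rows by role) in the 3 fl lines (red) and the 2 wt lines (blue). Vegfa stands furthest from 0, at -1.18 for fl and -0.03 for wt, and most glycolytic enzymes lie within 0.3 of 0 in both.

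The fl and the wt lines were also set against each other under the same treatment, as fl minus wt. Under 4-OHT Vegfa was lower in the fl lines, at 36.1% of the signal in the wt lines, and was the member that passed. Its log2 difference was -1.47 (SE 0.23, n = 3 against 2 lines, adjusted p = 0.0401), and its arrays at 8.85 to 9.40 in the fl lines did not overlap those at 10.34 and 10.92 in the wt lines. This is 1 of 33 members (3.03%), against 101 of all genes (0.645%), of which 72 were lower (0.46%). The call was lost when any 1 line was left out (adjusted p between 0.0572 and 0.412), and in a fit of these 5 arrays alone (adjusted p = 0.0857), with a range of 0.00483 to 0.412 over all alternatives. The log2 difference itself lay between -1.76 and -1.18 over those alternatives. The summed signal of the 12 myeloid progenitor markers was 64253 to 70813 on the fl 4-OHT arrays, against 83016 to 86477 on the wt 4-OHT arrays, and 59408 to 75713 on the fl vehicle arrays, against 79103 to 87210 on the wt vehicle arrays. These sums did not overlap between fl and wt under either treatment, and their part in the Vegfa difference was not tested. They add linear signals, so bright markers weigh most, and the markers did not all go the same way. On the fl 4-OHT arrays Mpo read 12.32, 12.24 and 11.29, against 13.02 and 13.62 on the wt 4-OHT arrays. Cd34 went the other way, at 11.48, 12.33 and 11.26, against 8.99 and 10.44. The share of all genes without overlap is no measure for such a sum. Under vehicle Vegfa read 10.19 to 10.53 in the fl lines, against 10.46 and 10.86 in the wt lines, which overlap (-0.32, SE 0.23, adjusted p = 0.543).

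At an unadjusted p under 0.05 stood 5 members under 4-OHT (15.2%), against 10.8% of all genes. Beside Vegfa these were Aldoc, Bnip3, Tpi1 and Egln1. Aldoc was 1.01 higher on the log2 scale in the fl lines (SE 0.40, adjusted p = 0.379), with every fl 4-OHT array above both wt 4-OHT arrays, and 0.69 to 1.32 over the alternatives. Bnip3 differed by 0.98 (SE 0.40, adjusted p = 0.4), also without overlap, and by 0.62 without line 10977. Tpi1, which interconverts the triose phosphates, differed by 0.36 (SE 0.12, adjusted p = 0.281) and Egln1 by -0.45 (SE 0.18, adjusted p = 0.399). In all, 11 members had fl 4-OHT and wt 4-OHT arrays that did not overlap (33.3%), against 26.8% of all genes. Of the 7 lower glycolytic enzymes 6 were higher in the fl lines under 4-OHT, while 56.4% of all genes were higher. Their median was 0.34, against 0.02 over all genes. None of these 7 passed.

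Under vehicle no member passed (0 of 33), against 3 of all genes (0.0192%). At an unadjusted p under 0.05 stood 5 members (15.2%), against 9.83% of all genes. Pfkl was 0.80 higher in the fl lines (SE 0.26, adjusted p = 0.433), at 9.34, 9.76 and 10.31 on the fl vehicle arrays of lines 10949, 10950 and 10986, against 9.14 and 8.86 on the wt vehicle arrays. Pkm was 0.58 higher (SE 0.20, adjusted p = 0.452), at 12.21, 12.39 and 12.82 in the fl lines, against 11.83 and 11.95 in the wt lines. The arrays of Pfkl and of Pkm did not overlap between genotypes. Ldhb differed by -0.87 (SE 0.37, adjusted p = 0.504), a value that rests on the wt array at 8.28, of line 10980: it was -0.0745 without that line and -1.67 without line 10977 (adjusted p = 0.0331). Mxi1 differed by -0.47 (SE 0.17, adjusted p = 0.485) and Bnip3l by -0.37 (SE 0.12, adjusted p = 0.419), and Aldoc by 0.77 (SE 0.40, adjusted p = 0.519). The Aldoc value under vehicle was 0.18 without wt line 10980, 1.35 without wt line 10977 and 0.49 without fl line 10986. All 7 lower glycolytic enzymes were higher in the fl lines, from 0.04 for Pgam1 to 0.77 for Aldoc, while 54.3% of all genes were higher. Their median was 0.20, against 0.03 over all genes. In total 13 members had vehicle arrays that did not overlap between fl and wt (39.4%), against 30.7% of all genes. Each genotype is carried by its own leukaemias, so genotype and line cannot be told apart beyond the spread among 3 and 2 lines. These comparisons share arrays with those of 4-OHT and vehicle above.

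**Figure D4:**
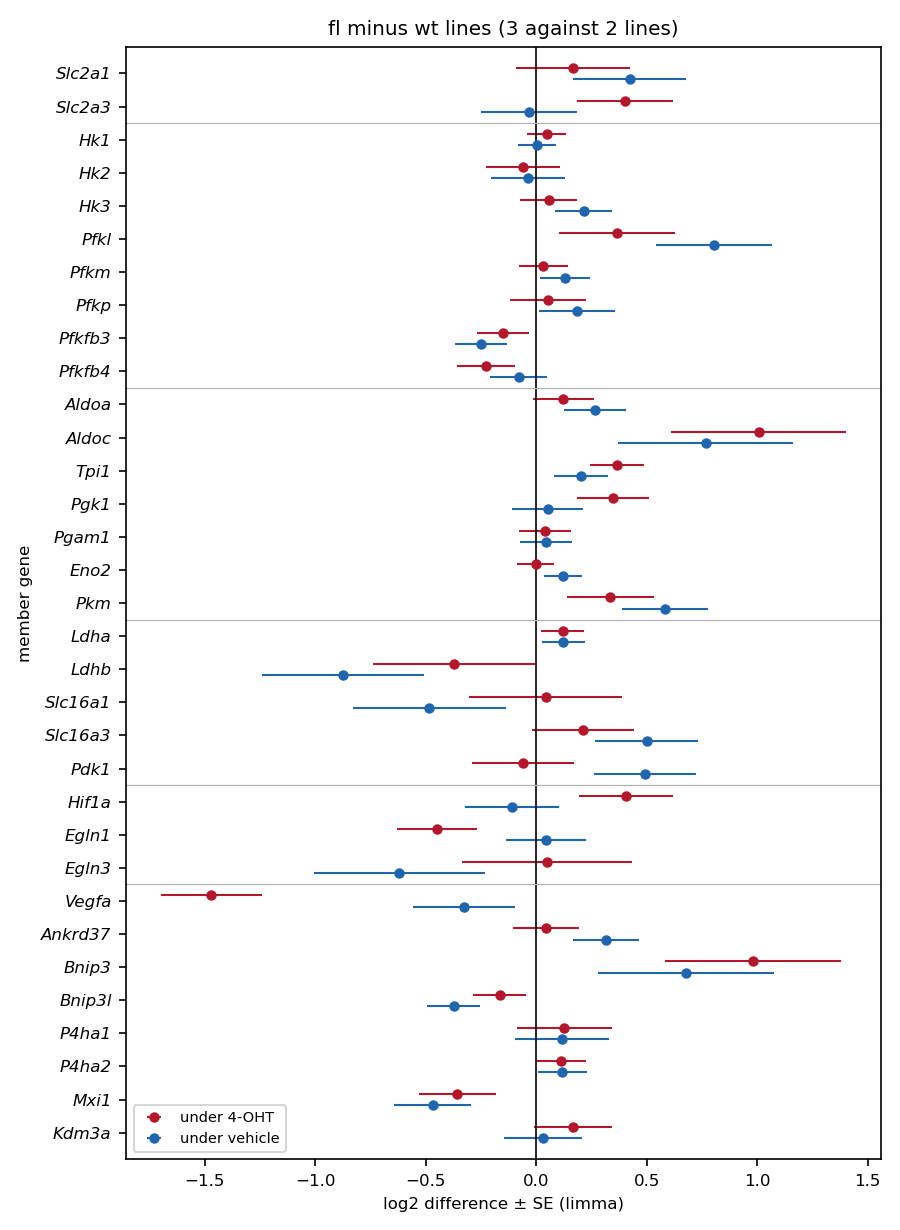
Log2 difference of fl minus wt lines (horizontal axis, limma mean with its SE as the bar) for each measured member (rows by role) under 4-OHT (red) and under vehicle (blue), from 3 fl and 2 wt lines. Vegfa is at -1.47 under 4-OHT and at -0.32 under vehicle, and the lower glycolytic enzymes lie at or above 0 in both, apart from Eno2 at -0.00312 under 4-OHT.

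Neighbouring genes of the same pathways were listed by name and measured in the same fits. None of their tested members passed in the 4-OHT comparison of the fl lines: 0 of 27 glycolysis paralogues and side branches, 0 of 14 pyruvate oxidation genes, 0 of 9 pentose phosphate genes, 0 of 14 regulators of hypoxia signalling and 0 of 32 further hypoxia targets, against 0.153% of all genes. None passed in the other 4 comparisons either. At an unadjusted p under 0.05 in the fl lines stood 6, 0, 3, 2 and 5 of these lists in the order given, against 12.3% of all genes. Their medians were -0.00227, 0.06, -0.03, -0.02 and 0.03.

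Among the further hypoxia targets, Hmox1, which breaks down haem, read 10.17, 9.39 and 10.66 on the fl 4-OHT arrays, against 9.03, 8.59 and 8.98 on the fl vehicle arrays. The groups did not overlap, with a log2 difference of 1.21 (SE 0.21, adjusted p = 0.0948), the opposite sign to that of Vegfa. Kdm4c, a histone demethylase, gave -0.58 (SE 0.18, adjusted p = 0.251). Among the regulators, Siah2, a ubiquitin ligase that acts on the Egln enzymes, gave -0.35 (SE 0.11, adjusted p = 0.278), and Arnt, the partner subunit of Hif1a, gave 0.28 (SE 0.10, adjusted p = 0.302). In the pentose phosphate pathway, which branches off at glucose phosphate, Pgls gave -0.62 (SE 0.12, adjusted p = 0.113) and Tkt -0.37 (SE 0.11, adjusted p = 0.247), each lower in 3 of 3 fl lines. Of the glycolysis side branches, the carrier Slc2a6 and the mannose phosphate isomerase Mpi each gave 0.48 (SE 0.15, adjusted p = 0.252 and 0.272). Slc2a6 gave 0.33, 0.47 and 0.63 in lines 10949, 10950 and 10986, but also 0.46 in wt line 10977, and -0.22 in wt line 10980. Mpi gave 0.16, 0.35 and 0.92 in the same fl lines, and -0.11 and -0.07 in the wt lines. Of pyruvate oxidation, Pdk3, a relative of Pdk1, gave 0.52 (SE 0.24, adjusted p = 0.454) and Me2, the mitochondrial malic enzyme, 0.39 (SE 0.18, adjusted p = 0.47). In lines 10949, 10950 and 10986 the differences were 0.03, 0.21 and 1.32 for Pdk3 and 0.01, 0.19 and 0.96 for Me2. Both means rested mostly on the vehicle array of line 10986, the lowest of all 10 for each gene.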

How the data were processed

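RNA was measured in 10 samples, 1 array per line and treatment, grouped by the labels. The authors deposited a linear intensity for every probe set on every array, and per the submitters' processing notes RMA produced it. RMA subtracts a background, equalises the distributions and summarises probes, which can compress differences of low signals. The sources used here name no version. Log2 of the deposited intensity was taken here.

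Of 35556 probe sets, 21789 have 1 symbol in the platform annotation, 1621 several, and 12146 are not listed. Changes were tested with limma 3.58.1 (R 4.3.3, statmod 1.5.0) on all 10 arrays, two-sided, with Benjamini-Hochberg adjustment over 15662 genes. For 4-OHT effects the line was a fixed block with a separate term per genotype (6.69 total degrees of freedom). For fl against wt the line was a random block (correlation 0.165) with 4 group means. The pairing comes from the series design. As a check, each array's deviation from its group mean was correlated between the 4-OHT and the vehicle array of a line: r was 0.78 (10949), 0.22 (10950), -0.06 (10986) and 0.43 (both wt lines). With 2 wt lines the deviations of each are those of the other with the sign turned, so 0.43 is a single value. The fits were tested on simulated data. Arrays have no read depth, so their number limits the precision. No batch is given in the sources used here.

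Named in full were members that passed, those with the largest differences per comparison, and 8 members fixed by name. Those 8 were Slc2a1, Hk2, Pfkl, Pgk1, Ldha, Pdk1, Egln3 and Hif1a. The members, lists and rules were chosen with earlier results of these data known. Alternatives covered the block, level filter, probe set choice, scaling, prior, array weights, arrays fitted and each line left out. The Hk1 probe set alternative was added after seeing the data.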

Additional observations from a re-analysis of the deposited data

How the results depend on the processing

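In the fl comparison of 4-OHT with vehicle, 0 members passed with the line as a fixed block and 0 with no replicate block, 1 (Vegfa) with a random replicate block, 6 with array weights and 0 to 2 when each line was left out (Slc2a3 and Vegfa without line 10986). For the difference of the effects, 1 member passed with array weights. For fl against wt under 4-OHT, 1 passed with and without the replicate block, 2 with array weights, 0 with each line left out (0 to 0) and 0 in a fit of the arrays compared. For fl against wt under vehicle, 9 passed with array weights and 0 to 1 with each line left out (Ldhb without line 10977). The estimation of array weights stopped before convergence, and with them 24.9% of all genes passed in the fl comparison and 39.8% under vehicle. With each line left out, the members' median ranged from -0.13 to 0.0775 for the difference of the effects, from 0.0278 to 0.18 under 4-OHT and from 0.0187 to 0.14 under vehicle.

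Some fl differences that did not pass turned sign. Array weights gave -0.0736 for Ldhb, -0.47 for Bnip3, -0.0693 for Pgk1 and -0.0348 for Ldha, and quantile normalization gave -0.0251 for Ldha. Slc2a1 gave 0.14 without the vehicle array of line 10986, in a fit with no replicate block. With each line left out, Slc16a1 gave -0.0444 to 0.64, Ldhb -0.0146 to 0.0734, Bnip3 -0.13 to 0.43 and Ldha -0.0113 to 0.0298. The cause was not tested. Ldhb, Eno2 and P4ha2 lie close to the level filter, where signals have little precision.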
